A study of Mus musculus with 16 samples.

Results

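The genes described here are Itgax, which encodes the integrin chain CD11c and gave the Cre driver of this study its promoter, and 8 genes that lie around it on mouse chromosome 7: Itgam, Itgad, Cox6a2, Pycard, Armc5, Tgfb1i1, Kat8 and Vkorc1. They were chosen by position, not by their values, and make up 9 of the 18232 genes listed in the tables. Expression was measured by RNA-seq in 16 libraries of dendritic cells (DCs) sorted from the spleen of C57BL/6 mice aged 6 to 8 weeks. WT mice carried floxed alleles of Trim33 (Trim33 fl/fl) and no Cre, and cKO mice (KO in the library labels) were Trim33 fl/fl Itgax-Cre. Plasmacytoid DCs (pDCs, CD11c+ SiglecH+) gave 3 WT and 3 cKO libraries. Type 1 conventional DCs (cDC1s, CD11c+ SiglecH- MHC II+ CD24+ CD172a-) gave 2 and 2, and type 2 conventional DCs (cDC2s, CD11c+ SiglecH- MHC II+ CD24- CD172a+) gave 3 and 3.

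The libraries are described as biological replicates. Each of them pooled cells of several mice, and of more mice for cKO than for WT. Other lineages were depleted with antibodies before the sort. All cKO mice and no WT mice carried the Itgax-Cre transgene. Loss of Trim33 and presence of the transgene therefore cannot be told apart in any comparison of cKO with WT below. The values are given per gene, so that transcripts of the chromosomal copy and of any copy inside the transgene cannot be told apart either.

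Itgax, Itgam and Itgad encode alpha chains (CD11c, CD11b and CD11d) of the beta-2 integrins, cell-surface receptors that pair each alpha chain with the beta chain CD18, the product of Itgb2, and bind complement fragments and adhesion molecules. CD11c is the usual surface marker of DCs, and CD11b marks cDC2s, monocytes, macrophages and neutrophils. The other genes have unrelated roles. Cox6a2 encodes an isoform of a cytochrome c oxidase subunit known from heart and skeletal muscle, and Pycard encodes ASC, the adaptor that links inflammasome sensors to caspase-1. Armc5 encodes an armadillo-repeat protein, Tgfb1i1 a paxillin-like protein of focal adhesions (Hic-5), Kat8 a histone H4 acetyltransferase, and Vkorc1 the enzyme that recycles vitamin K.

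On GRCm38.p6, the build of the mm10 genome used for the files, Itgax lies on the plus strand of chromosome 7 (chr7:128129526-128150657). Itgam (chr7:128062640-128118491) ends 11.0 kb before it. Itgad (chr7:128173933-128205504) begins 23.3 kb behind it and Cox6a2 (chr7:128205435-128206366, minus strand) 54.8 kb behind it. Armc5 and Tgfb1i1 follow at 86.7 and 96.2 kb. On the other side Pycard, Kat8 and Vkorc1 lie 136, 204 and 234 kb from Itgax. The ends of Itgad and Cox6a2 overlap by 70 bases on opposite strands, and since the strandedness of the libraries was not given in the sources used here, reads from that stretch cannot be assigned to either gene.

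The RefSeq promoter table (GRCm38.p6, 250 bases before to 50 bases after the start site) held entries for 5 of the 9 genes. The entries of Itgam and Itgax are printed because they are neighbouring genes on the same strand that code for paralogous chains and behaved differently below. Capitals mark the letters GAGGAA, a core of PU.1 sites, on either strand, and the E-box CAGCTG. PU.1 is a transcription factor of myeloid cells and DCs.
Itgam, chr7:128062390-128062689, plus strand: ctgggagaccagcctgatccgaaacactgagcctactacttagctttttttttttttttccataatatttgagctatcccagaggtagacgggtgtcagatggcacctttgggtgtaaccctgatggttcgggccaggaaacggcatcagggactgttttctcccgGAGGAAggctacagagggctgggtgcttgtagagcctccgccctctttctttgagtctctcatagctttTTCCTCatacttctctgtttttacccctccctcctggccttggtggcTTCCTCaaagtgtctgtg
Itgax, chr7:128129300-128129599, plus strand: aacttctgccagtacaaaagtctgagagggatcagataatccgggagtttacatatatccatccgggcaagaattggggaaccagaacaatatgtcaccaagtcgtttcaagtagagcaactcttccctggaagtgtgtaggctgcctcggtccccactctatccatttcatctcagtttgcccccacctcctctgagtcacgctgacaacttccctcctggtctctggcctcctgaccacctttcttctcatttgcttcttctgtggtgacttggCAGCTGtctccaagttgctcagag
The Itgam entry held GAGGAA at 3 places, which begin at −84, −15 and 33 from the start site, the last pair on the minus strand. The Itgax entry held no GAGGAA and held CAGCTG at 27. Both strands were searched, and the marked matches do not overlap. Over all 32851 entries of the same length, 28.3% held GAGGAA and 16.3% held CAGCTG. Of the 6 entries of the 5 genes, 2 held GAGGAA, those of Itgam and of Pycard, and 5 held CAGCTG. Pycard was not called in any subset below. The CCAAT box, in 37.4% of all entries, was found on the minus strand of the Itgax entry and not in the Itgam entry. The E-box CAGGTG was in neither and in 20.2% of all entries. The letters TATAAA were in neither and in 13.6% of all, and the IRF element was in neither and in 3.44%. These are matches of letters, and no binding was measured.

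The main pattern was that Itgam, Itgad and Cox6a2 were higher in cKO than in WT cells of all 3 subsets, whereas Itgax between them did not pass the test in any. A gene was called when its limma adjusted p (Benjamini-Hochberg over all genes tested in the contrast) was at most 0.01 and its log2 fold change on the log2(TPM + 1) scale was at least 0.5 in size. TPM is a level per gene that takes account of transcript length and is scaled to the same sum in every library. In bulk samples such as these, fewer cells of a type and less RNA per cell cannot be told apart. In pDCs 3 of the 9 genes were called higher and 0 lower, where 0.814% of all 11299 genes tested were called higher and 0.239% lower. In cDC1s 4 were called higher and 0 lower, beside 15.8% and 6.56% of 11411 genes. In cDC2s 3 were called higher and 0 lower, beside 3.59% and 3.56%. Without WT pDC library 3 the pDC count was 1, Itgam, and without WT cDC1 library 1 or either cKO cDC1 library the cDC1 count was 2, Itgam and Cox6a2, whereas the cDC2 count was 3 under every alternative run. In the values themselves, all cKO libraries lay above all WT libraries for 5 of the 9 genes in pDCs (10.8% of all genes) and below them for 1 (16.7%). These numbers were 7 and 0 in cDC1s, beside 52.1% and 24.1% of all genes, so that separation of 2 against 2 libraries says little there, and 4 and 0 in cDC2s, beside 16.3% and 19.2%. The median log2 fold change of the 9 genes was 0.34 (pDCs), 0.41 (cDC1s) and 0.28 (cDC2s), against −0.05, 0.17 and −0.03 for all genes tested. The cDC1 background depended on the scaling of the libraries: 1806 genes were called higher and 749 lower on TPM as deposited, but 1067 and 1067 after median-of-ratios scaling, which moved the median of all genes to 0.02. With the replicate number as a block 260 genes were called higher and 75 lower in pDCs, against 92 and 27 without it, and of the 9 genes again Itgam, Itgad and Cox6a2.

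**Figure D1:**
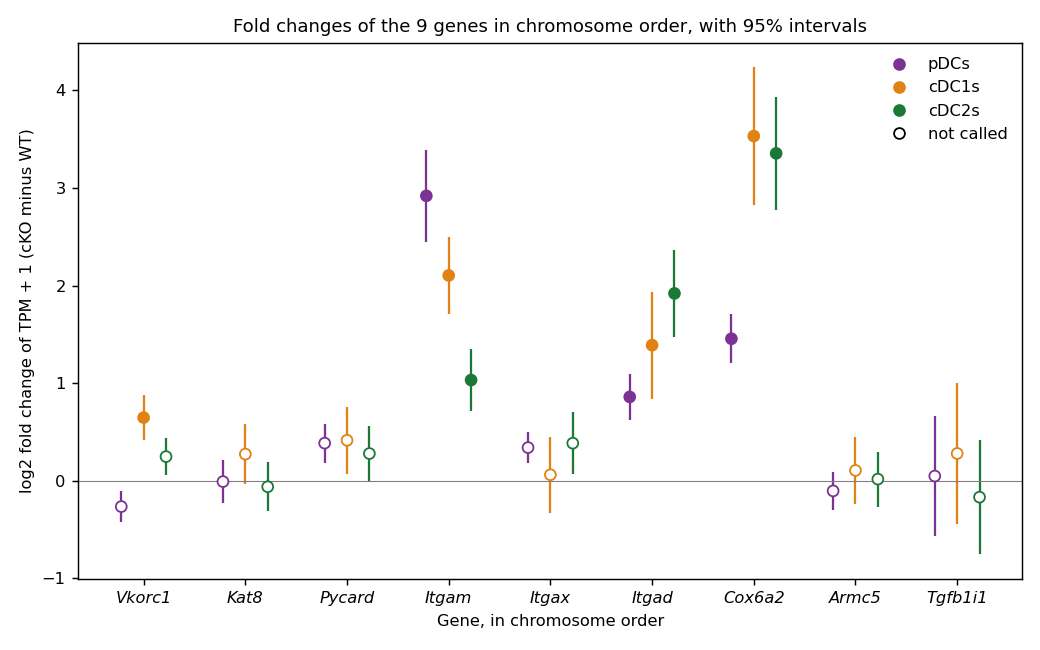
Log2 fold change (cKO minus WT, log2(TPM + 1) scale) of the 9 genes in chromosome order, with limma 95% intervals as bars; filled points were called and open points were not. Itgam, Itgad and Cox6a2 were called in all 3 subsets, Vkorc1 only in cDC1s, and Itgax in none of the 3.

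Estimated depths were 17.95 to 20.25 M reads per library, at which 1 TPM on a transcript of 2000 bases stands for about 16.3 to 21.5 reads. Libraries of the same group correlated at r = 0.988 to 0.992 in pDCs and 0.981 to 0.994 in cDCs over genes, and none held identical values. Trim33, the deleted gene, was at 20.6, 23.8 and 22.3 TPM in WT pDCs and at 12.6, 16.5 and 11.7 in cKO pDCs. It was at 15.5 and 18.2 TPM in WT cDC1s and 7.88 and 7.71 in cKO cDC1s. In WT cDC2s it was at 20.6, 18.2 and 17.2 TPM, and in cKO cDC2s at 7.93, 7.13 and 8.07. The groups did not overlap in any subset. The fall was called in cDC1s (log2 fold change −1.02, SE 0.13, limma adjusted p = 0.000349) and cDC2s (−1.17, SE 0.11, adjusted p = 0.000126). In pDCs it was not (−0.68, SE 0.13, limma adjusted p = 0.0301), although it was with the replicate block (limma adjusted p = 0.00361). The labelled cell types carried their markers: the 8 pDC markers summed to 15642 TPM or more in every pDC library and to 259.7 at most in cDC libraries. The 8 cDC1 markers summed to 3315 to 3549 TPM in WT cDC1s, to 2537 to 2652 in cKO cDC1s and to 489.8 at most elsewhere. Of them Itgae (log2 fold change −2.70), Cadm1 (−1.74) and Clec9a (−1.33) were called lower in cKO cDC1s, and the others were not called. Of all genes tested in cDC1s 6.56% were called lower. The 8 cDC2 markers summed to 1816 to 2079 TPM in WT cDC2s, to 1358 to 1549 in cKO cDC2s and to 67.3 at most in cDC1s. In pDCs they summed to 1347 to 1879, where Cd4, Cd209a and Sirpa made up most of the sum. Of them Cd4 (log2 fold change −1.37), Dtx1 (−1.20), Esam (−1.17) and Irf4 (−1.08) were called lower in cKO cDC2s, and the others were not called. Of all genes tested in cDC2s 3.56% were called lower.

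Itgax was abundant in every group and was the most strongly expressed of the 3 integrin genes in all 16 libraries. All cells were sorted on CD11c, the protein of this gene, so that cells with little of it were not collected. WT pDC libraries held 216, 196 and 224 TPM of Itgax and cKO pDC libraries 282, 266 and 257. The groups did not overlap, and the log2 fold change was 0.34 (SE 0.07), below the size limit, at a limma adjusted p of 0.0338. In cDC1s the WT libraries held 538 and 476 TPM and the cKO libraries 524 and 533, so that both cKO values lay between the WT values. The log2 difference was 0.06 (SE 0.17, limma adjusted p = 0.802), with a 95% interval from −0.33 to 0.45, and it turned to −0.11 under median-of-ratios scaling. In cDC2s the WT values were 826, 828 and 1108 TPM and the cKO values 1401, 1023 and 1179. One WT library lay above the lowest cKO library, and the log2 difference of 0.39 (SE 0.14) missed the threshold (limma adjusted p = 0.0842).

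Itgam, the nearest gene upstream, rose in every subset, from very different starting levels. Its WT pDC libraries held 2.48, 1.65 and 1.30 TPM and its cKO pDC libraries 25.4, 19.1 and 16.2. The lowest cKO value was well above the highest WT value, the group means were 1.81 ± 0.606 and 20.3 ± 4.70 TPM (SD, n = 3), and the log2 fold change was 2.92 (SE 0.20, limma adjusted p = 0.000952). In cDC1s it went from 1.46 and 1.83 TPM in WT to 11.3 and 9.44 in cKO, a log2 fold change of 2.10 (SE 0.18, limma adjusted p = 4.33e-05). cDC2s, the subset that expresses CD11b, held 80.9, 86.4 and 112 TPM in WT and 214, 166 and 191 in cKO. Here too the groups did not overlap, and the log2 fold change was 1.03 (SE 0.14, limma adjusted p = 0.00134). The ratio of the group means was 11.2 in pDCs, 6.31 in cDC1s and 2.05 in cDC2s, but the largest gain in level was in cDC2s, at 97.4 TPM against 18.5 in pDCs and 8.74 in cDC1s. cKO pDCs and cDC1s still held less of it than any WT cDC2 library, with the limit for pDCs that the tables were normalised separately. All 3 calls held when any single library was left out.

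Itgad, the nearest integrin gene downstream, rose in every subset as well, least firmly, in fits without the replicate block, in pDCs. There it was at 12.9, 15.4 and 15.9 TPM in WT and at 26.1, 26.7 and 29.6 in cKO libraries, with no overlap. The log2 fold change was 0.86 (SE 0.10, limma adjusted p = 0.00566). This call sat close to the threshold when the pairing of the pDC libraries was not used. In such fits it was lost without any 1 of the 6 pDC libraries, with limma adjusted p from 0.0140 to 0.0228. WT cDC1s held 1.46 and 2.02 TPM and cKO cDC1s 6.39 and 5.90, a log2 fold change of 1.39 (SE 0.25, limma adjusted p = 0.00187). Leaving out WT cDC1 library 1, cKO cDC1 library 1 or cKO cDC1 library 2 ended this call (limma adjusted p = 0.0178, 0.0203 and 0.0129). The largest change was in cDC2s, from 16.0, 15.9 and 9.71 TPM in WT to 65.8, 43.6 and 54.8 in cKO. Every cKO library held well over the highest WT value, the log2 fold change was 1.92 (SE 0.20, limma adjusted p = 0.000309), and the call held without each library in turn.

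**Figure D2:**
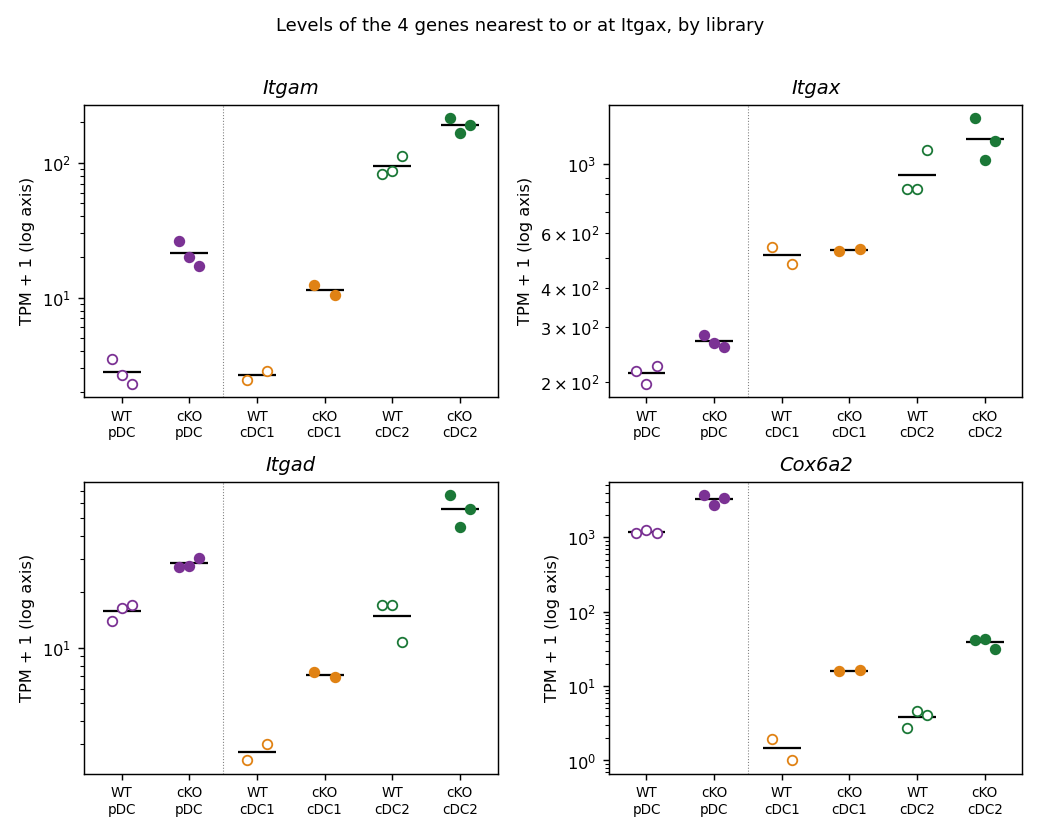
TPM + 1 (log axis) of Itgam, Itgax, Itgad and Cox6a2 in each library; open points are WT, filled points cKO, horizontal lines group means, and the dotted line separates the pDC and cDC tables, which were normalised separately. cKO points stand above WT points in every subset for Itgam, Itgad and Cox6a2, whereas for Itgax they overlap in cDC1s and cDC2s.

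The 3 chains are paralogs, and RSEM divides reads that match more than 1 of them, in a number not given in the sources used here. Their make-up can be set beside Itgal (CD11a), the alpha chain of LFA-1, as shares of the summed TPM of the 4 genes. In pDCs Itgal made up 58.9 to 61.8% of the sum in WT and 51.8 to 53.0% in cKO libraries. Itgam made up 0.222 to 0.431% in WT and 2.52 to 3.63% in cKO pDCs, and Itgad 2.24 to 2.76% and 3.73 to 4.60%. Itgax took 73.6 to 75.7% of the sum in WT cDC1s and 65.4 to 67.5% in cKO cDC1s, while Itgal took 23.9 to 25.8% in WT and 30.5 to 32.4% in cKO. In cDC2s Itgam went from 7.92 to 8.43% of the sum in WT to 11.8 to 12.5% in cKO, and Itgad from 0.713 to 1.56% to 3.28 to 3.63%. The beta chain gene Itgb2 did not pass the test in pDCs (log2 difference −0.17), cDC1s (−0.31) or cDC2s (−0.31).

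**Figure D3:**
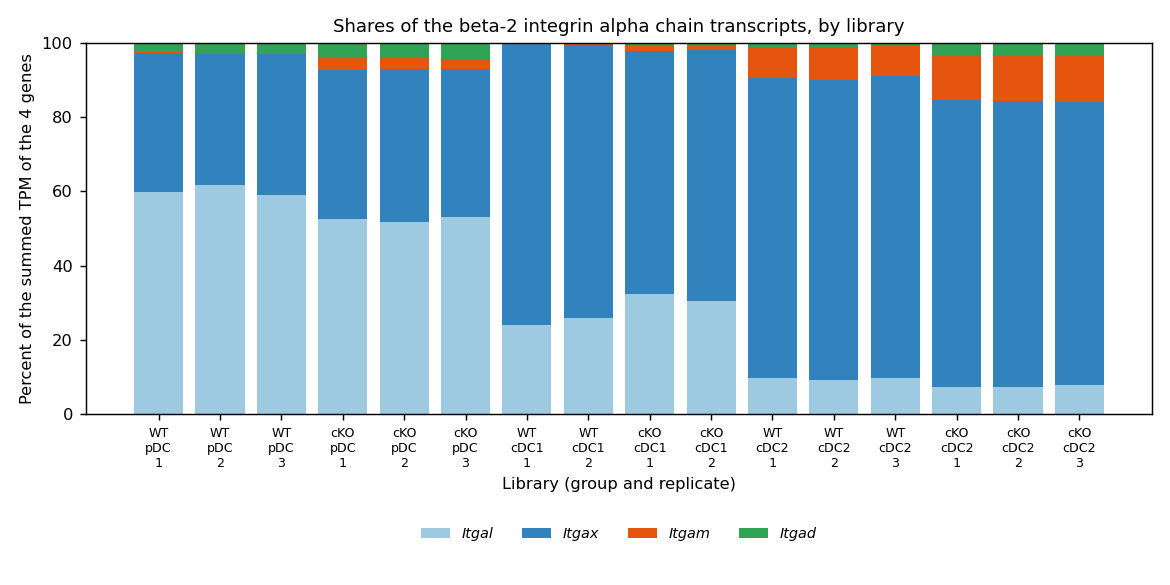
Shares of Itgal, Itgax, Itgam and Itgad in the summed TPM of these 4 alpha chain genes, as stacked bars for each of the 16 libraries. Itgam and Itgad took larger shares in cKO than in WT libraries of each subset, up to 12.5% for Itgam in cDC2s.

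Cox6a2 showed the highest levels of all 9 genes in pDCs and the largest relative rise in cDCs. WT pDC libraries held 1144, 1261 and 1160.3 TPM and cKO pDC libraries 3740.1, 2755 and 3354. All cKO values stood far above all WT values, with means of 1189 ± 63.5 and 3283 ± 496 TPM (SD, n = 3), and the log2 fold change was 1.46 (SE 0.11, limma adjusted p = 0.00128). Without WT pDC library 3 the limma adjusted p was 0.0114 at a log2 fold change of 1.44, just past the threshold. In WT cDC1s library 1 held 0.96 TPM, about 6.17 reads, and library 2 was listed at 0, where 3 reads on the 680-base transcript would stand for 0.477 TPM. Both cKO cDC1 libraries were clear of that level at 14.9 and 15.5 TPM, or about 91.2 and 100.4 reads. The log2 fold change was 3.53 (SE 0.32, limma adjusted p = 6.28e-05), but its size rests on the pseudocount, and it was 5.55 with a pseudocount of 0.1. WT cDC2s held 1.75, 3.62 and 3.15 TPM and cKO cDC2s 40.2, 41.9 and 30.9, again with no overlap, at a log2 fold change of 3.35 (SE 0.26, limma adjusted p = 4.81e-05). The 3-read level covers counting error only, since reads were not tagged by molecule.

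Since pDCs hold so much Cox6a2, its level in cDC libraries was set beside pDC markers, each as a percentage of its mean in cKO pDCs. Levels across the pDC and cDC tables are side by side only, as these were normalised separately. Cox6a2 was at 0.452 to 0.473% of that mean in cKO cDC1s and at 0.941 to 1.28% in cKO cDC2s, but at 0.0292% at most in WT cDC1s and 0.110% at most in WT cDC2s. Siglech, on which pDCs were sorted, went from 0.0703 to 0.0813% in WT cDC1s to 0.173 to 0.192% in cKO cDC1s, and from 0.113 to 0.156% in WT cDC2s to 0.0870 to 0.210% in cKO cDC2s. Klk1, which held 1959 TPM or more in every pDC library, was at 0.0268% at most in WT cDC1s and 0.00573% at most in cKO cDC1s. In cKO cDC2s Klk1 was at 0.0435% at most. The other pDC markers stood as follows. In cKO cDC1s Bst2 (5.65 to 5.68%), Tcf4 (3.94 to 4.24%), Runx2 (2.73 to 3.12%) and Ccr9 (1.77 to 2.11%) were at larger shares of their pDC level than Cox6a2, and Pacsin1 (0.445 to 0.592%) overlapped it. Siglech, Ly6d and Klk1 were at smaller shares. In WT cDC1s Bst2 was at 3.20 to 3.66%, Tcf4 at 1.52 to 2.51%, Runx2 at 1.66 to 2.14%, Ccr9 at 3.88 to 4.125% and Pacsin1 at 1.83 to 2.71%. Ly6d was at 0.0438 to 0.0830% in WT cDC1s and 0.127 to 0.129% in cKO cDC1s. In cKO cDC2s Bst2 (3.64 to 4.46%), Tcf4 (3.65 to 4.80%) and Runx2 (2.41 to 3.51%) were above Cox6a2 and the other 5 markers below it. In WT cDC2s Bst2 was already at 2.68 to 3.445%, Tcf4 at 4.56 to 5.31% and Runx2 at 2.87 to 3.52%, where Cox6a2 was at 0.110% at most. Of the 7 markers tested in cDC1s, Bst2 (log2 fold change 0.72, limma adjusted p = 0.00309) and Tcf4 (0.98, limma adjusted p = 0.00389) were called higher in cKO cDC1s, and Ccr9 (−0.97, limma adjusted p = 0.000787) and Pacsin1 (−1.61, limma adjusted p = 0.000412) lower. Siglech (1.07, limma adjusted p = 0.0152) and Runx2 (0.59, limma adjusted p = 0.0292) were higher at an adjusted p under 0.05 but were not called. Of all genes tested in cDC1s 15.8% were called higher and 6.56% lower. In cDC2s 0 of the 7 were called by limma, with 1, Bst2, at an adjusted p under 0.05. There 3.59% of all genes were called higher and 3.56% lower. The part of pDC RNA in the Cox6a2 values of cDCs was not tested.

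Cox6a2 can also be set beside Cox6a1, the isoform of most other tissues. The ratio of Cox6a2 to Cox6a1 was 2.30 to 2.57 in WT pDCs and 5.41 to 6.88 in cKO pDCs. In cDCs Cox6a1 exceeded Cox6a2 throughout, and the ratio was highest in cKO cDC2s at 0.0621 to 0.0788. Cox6a1 itself did not pass the test, with log2 differences of 0.14 in pDCs, 0.39 in cDC1s and 0.23 in cDC2s. The ratio of Cox6a2 to Itgad, its overlapping neighbour, was 72.9 to 88.9 in WT and 103 to 143 in cKO pDCs, 2.32 to 2.63 in cKO cDC1s, and 0.563 to 0.960 in cKO cDC2s. The partners did not keep a fixed ratio across subsets.

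Markers of other cell types were examined because Itgam is also a gene of monocytes, macrophages and neutrophils. The 9 monocyte and macrophage markers summed to 4948 to 5625 TPM in WT pDCs and 5750 to 5921 in cKO pDCs, of which Ly6c2, also a gene of pDCs, made up most. In cDC1s they summed to 363 to 634 TPM in WT and 461 to 493 in cKO, most of it Lyz2, which was not called there (−0.51, limma adjusted p = 0.166). Other genes of the list rose with Itgam in cDC1s: Ccr2 (log2 fold change 2.10, limma adjusted p = 0.00153), Ly6c2 (1.40, limma adjusted p = 0.00386) and Csf1r (0.85, limma adjusted p = 0.00636). Thus 3 of 9 were called higher and 0 lower in cDC1s, beside 15.8% and 6.56% of all genes tested. In cDC2s the sum went from 1006 to 1464 TPM to 2452 to 3078, where Lyz2 held 617 to 1048 TPM in WT and 1945 to 2449 in cKO. There Lyz2 (1.40, limma adjusted p = 0.00288), Ccr2 (13.2 to 28.3 TPM in WT and 45.7 to 61.2 in cKO, limma adjusted p = 0.00682), Csf1r (0.94, limma adjusted p = 0.00326) and Fcgr1 (1.15, limma adjusted p = 0.00789) were called higher. Over all genes tested in cDC2s 3.59% were called higher and 3.56% lower. The defining macrophage genes Fcgr1 and Mertk were at 1.58 TPM or lower in pDCs and 0.62 or lower in cDC1s. Fcgr1 went from 2.45 to 4.39 TPM in WT cDC2s to 5.79 to 10.2 in cKO cDC2s. The 9 neutrophil markers summed to 12.7 to 34.2 TPM in WT pDCs and 34.7 to 142 in cKO pDCs, to 4.83 to 20.9 and 26.0 to 46.2 in cDC1s, and to 11.3 to 38.5 and 23.1 to 86.5 in cDC2s. Ly6g was at 0.82 TPM or lower in every library, and at 0 in all WT cDC1 and WT cDC2 libraries. The 8 red pulp macrophage markers summed to 85.2 to 146 TPM in WT and 148 to 257 in cKO pDCs, to 158 to 208 in WT and 47.9 to 53.8 in cKO cDC1s, and overlapped in cDC2s (295 to 763 in WT and 413 to 770.0 in cKO). NK cell and T cell markers summed to 11.6 and 7.06 TPM at most in any library and B cell markers to 16.7 to 129, while erythroid markers ranged from 248 to 7240.3 with overlap between the genotypes of every subset. The part of these markers in the rise of Itgam and Itgad was not tested. Set beside cDC2 markers, Itgam in cKO pDCs was at 8.53 to 13.4% of its cKO cDC2 mean, whereas Clec4a4, a cDC2 marker, was at 0.123% at most, and Esam, Tbx21 and Dtx1 at 0.840%, 0.689% and 1.77% at most. The other 4 cDC2 markers were at larger shares than Itgam in cKO pDCs, with Sirpa at 55.3 to 56.8%, Cd209a at 80.0 to 87.5%, Irf4 at 125 to 191% and Cd4 at 573 to 700.1%. In WT pDCs Itgam was at 0.683 to 1.30% of its cKO cDC2 mean. Sirpa was at 54.5 to 57.5% there, Cd209a at 102.5 to 115.2%, Irf4 at 152.5 to 157.2% and Cd4 at 784.5 to 931.5%. Clec4a4, Esam, Tbx21 and Dtx1 were at 0.627%, 2.30%, 0.935% and 1.155% at most in WT pDCs. In cKO cDC1s Itgam was at 4.96 to 5.95% of that mean, while Clec4a4, Dtx1, Sirpa and Cd4 were at 1.82%, 1.69%, 1.29% and 2.64% at most. Esam (5.92 to 7.12%), Tbx21 (5.95 to 6.49%), Cd209a (7.35 to 7.76%) and Irf4 (14.8 to 18.7%) overlapped Itgam or were above it in cKO cDC1s. In WT cDC1s Itgam was at 0.767 to 0.961%, Esam at 40.05 to 59.5%, Tbx21 at 2.90 to 4.43%, Cd209a at 3.39 to 7.47% and Irf4 at 14.8 to 20.7%. Clec4a4, Dtx1, Sirpa and Cd4 were at 0.472%, 1.31%, 1.40% and 11.5% at most in WT cDC1s.

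The remaining 5 genes lie farther from Itgax, and their log2 differences between genotypes were smaller than those of Itgam, Itgad and Cox6a2 in each subset. Pycard was at 45.4, 42.2 and 42.9 TPM in WT pDCs and 59.9, 50.5 and 61.5 in cKO pDCs, with no overlap. Its log2 difference was 0.39 in pDCs (SE 0.09, limma adjusted p = 0.0499), 0.41 in cDC1s (SE 0.15, adjusted p = 0.0562) and 0.28 in cDC2s (SE 0.13, adjusted p = 0.150), none of which was called. In cDC1s it was at 26.2 and 29.1 TPM in WT and 37.8 and 36.6 in cKO, and in cDC2s at 36.6, 43.4 and 31.7 in WT and 39.5, 49.9 and 46.2 in cKO, where the groups overlapped.

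Vkorc1 was the exception among the farther genes. It was at 26.9 and 28.1 TPM in WT cDC1s and at 43.2 and 44.1 in cKO cDC1s, a log2 fold change of 0.65 (SE 0.10) that was called (limma adjusted p = 0.00105). It stood at percentile 84.7 of all fold changes in that contrast, was 0.47 above the median of all genes, and lost its call under median-of-ratios scaling (0.48, limma adjusted p = 0.0158) and quantile normalization (0.46, limma adjusted p = 0.0196). The call was also lost without WT cDC1 library 1, cKO cDC1 library 1 or cKO cDC1 library 2 (limma adjusted p = 0.0110, 0.0123 and 0.0123). In pDCs Vkorc1 leaned the other way, at 66.6, 63.5 and 59.2 TPM in WT and 51.4, 51.0 and 54.5 in cKO, without passing the test (log2 difference −0.26, limma adjusted p = 0.0727). cDC2s held 30.1, 30.2 and 27.3 TPM in WT and 32.6, 36.8 and 35.2 in cKO (0.25, limma adjusted p = 0.0628).

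Armc5, Kat8 and Tgfb1i1 gave no call in any subset. Armc5 lay between 18.9 and 37.6 TPM over all libraries, with log2 differences of −0.10 in pDCs, 0.11 in cDC1s and 0.02 in cDC2s and overlapping groups in each. The widest of its 95% intervals ran from −0.24 to 0.45, in cDC1s. Kat8 lay between 14.1 and 38.3 TPM, with differences of −0.01, 0.27 and −0.06, and its values overlapped in pDCs and cDC2s, while both cKO cDC1 libraries (19.5 and 19.0 TPM) were above both WT cDC1 libraries (17.6 and 14.1). Tgfb1i1 was the least abundant, at 3.45 to 7.41 TPM in pDCs and 1.04 to 4.37 in cDCs. Its 95% interval ran from −0.57 to 0.67 in pDCs and from −0.44 to 1.00 in cDC1s, so that differences of these sizes remain compatible with the values. Signs of such small differences depended on the scaling: Kat8 in pDCs was 0.03 under median-of-ratios scaling, and Armc5 in cDC1s −0.06.

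**Figure D4:**
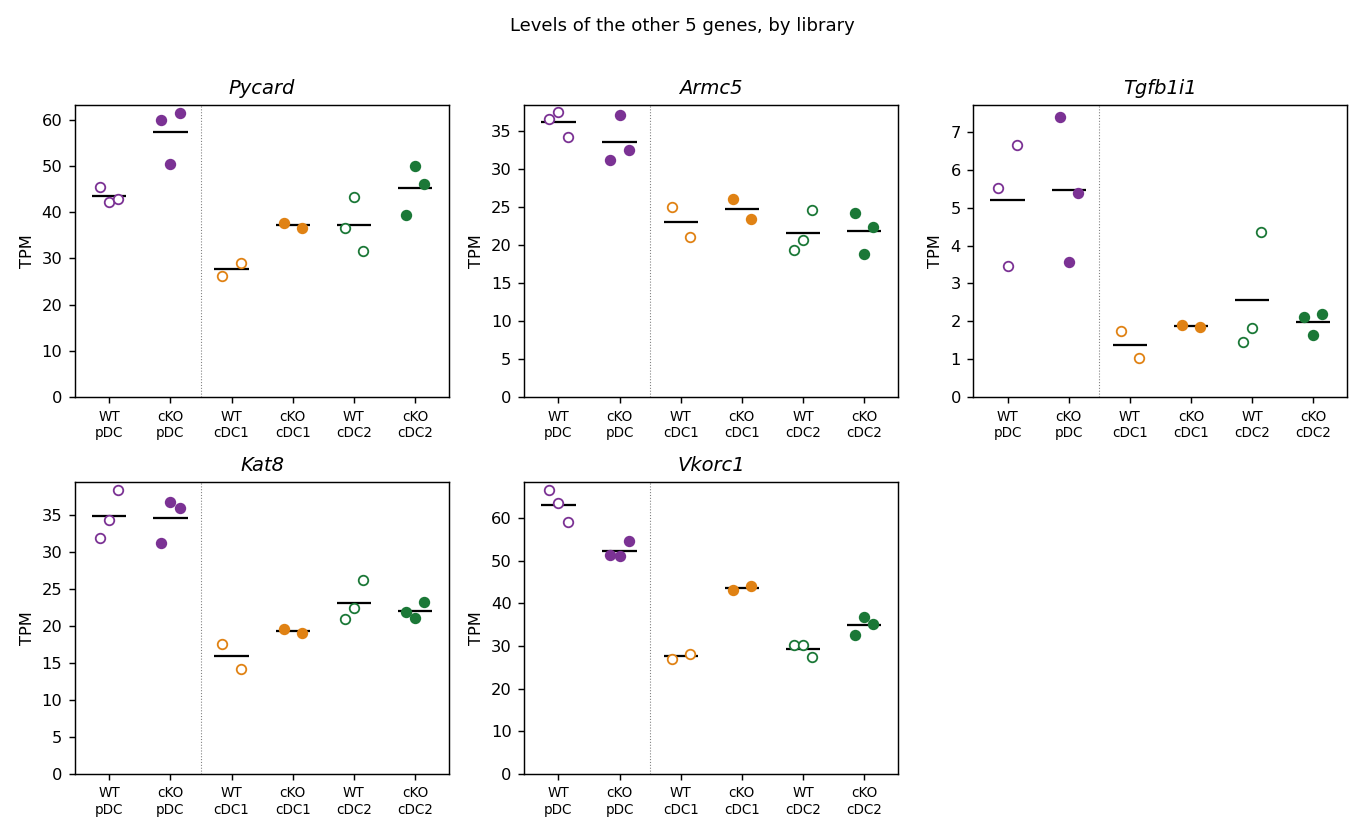
TPM of Pycard, Armc5, Tgfb1i1, Kat8 and Vkorc1 in each library, from 0; open points are WT, filled points cKO, horizontal lines group means, and the dotted line separates the pDC and cDC tables, which were normalised separately. Only Vkorc1 in cDC1s, at 26.9 to 28.1 TPM in WT and 43.2 to 44.1 in cKO, was called.

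To describe the neighbourhood as a whole, all 53 RefSeq genes with a gene body within 500 kb of that of Itgax were taken, of which 33 are protein coding. Of these 27 were tested in pDCs and 26 in cDCs. Within 100 kb there are 13 genes, and the tables list 7 of them: Itgax, Itgam, Itgad, Cox6a2, Armc5, Tgfb1i1 and 9130023H24Rik. The other 6 (Gm9299, Gm22809, Gm45700, Gm17831, Gm39091 and 4931431B13Rik) are not protein coding and were not analysed here. Among the 7 tested, Itgam, Itgad and Cox6a2 were called in each subset. 9130023H24Rik, which overlaps Armc5 by 675 bases, was not, at log2 differences of −0.04 in pDCs, 0.15 in cDC1s and −0.24 in cDC2s.

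From 100 to 250 kb 0 of 10 genes were called in pDCs and 0 of 9 in cDC2s, and from 250 to 500 kb 0 of 10 in each. In cDC1s 2 of 9 genes at 100 to 250 kb were called higher, Vkorc1 among them, and 1 of 10 at 250 to 500 kb, Bcl7c, a chromatin remodelling subunit gene. Bcl7c had a log2 fold change of 0.63 (limma adjusted p = 0.00101), and its call was lost without cKO cDC1 library 1 (limma adjusted p = 0.0156). It also fell below the size limit relative to the median of all genes (0.46), with quantile normalization (0.47) and with median-of-ratios scaling (0.46). Leaving out the 9, the other genes within 500 kb had a median log2 fold change of −0.02 in pDCs (18 genes), 0.24 in cDC1s (17 genes) and −0.02 in cDC2s (17 genes), beside −0.05, 0.17 and −0.03 for all genes. From 500 to 1000 kb 0 of 27 genes were called in pDCs. Of the 27 genes 4 were called higher in cDC1s and 1 in cDC2s. Spn, 984 kb upstream of Itgax and named after its value was seen, was called in both (log2 fold change 1.96 and 0.95). Beyond 1000 kb on chromosome 7, 1.32% of 836 genes were called higher in pDCs, 14.4% of 841 in cDC1s and 3.45% of 841 in cDC2s. Armc5 and Tgfb1i1, the tested genes next to Cox6a2 on the far side, were 86.7 and 96.2 kb from Itgax and uncalled in all 3 subsets, so the calls shared by the subsets lay between 11.0 kb upstream and 54.8 kb downstream of Itgax. Without WT cDC1 library 1, or cKO cDC1 library 1 or 2, the 6 calls within 500 kb in cDC1s came to 3, 2 and 3, and Itgam and Cox6a2 were called in each case.

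**Figure D5:**
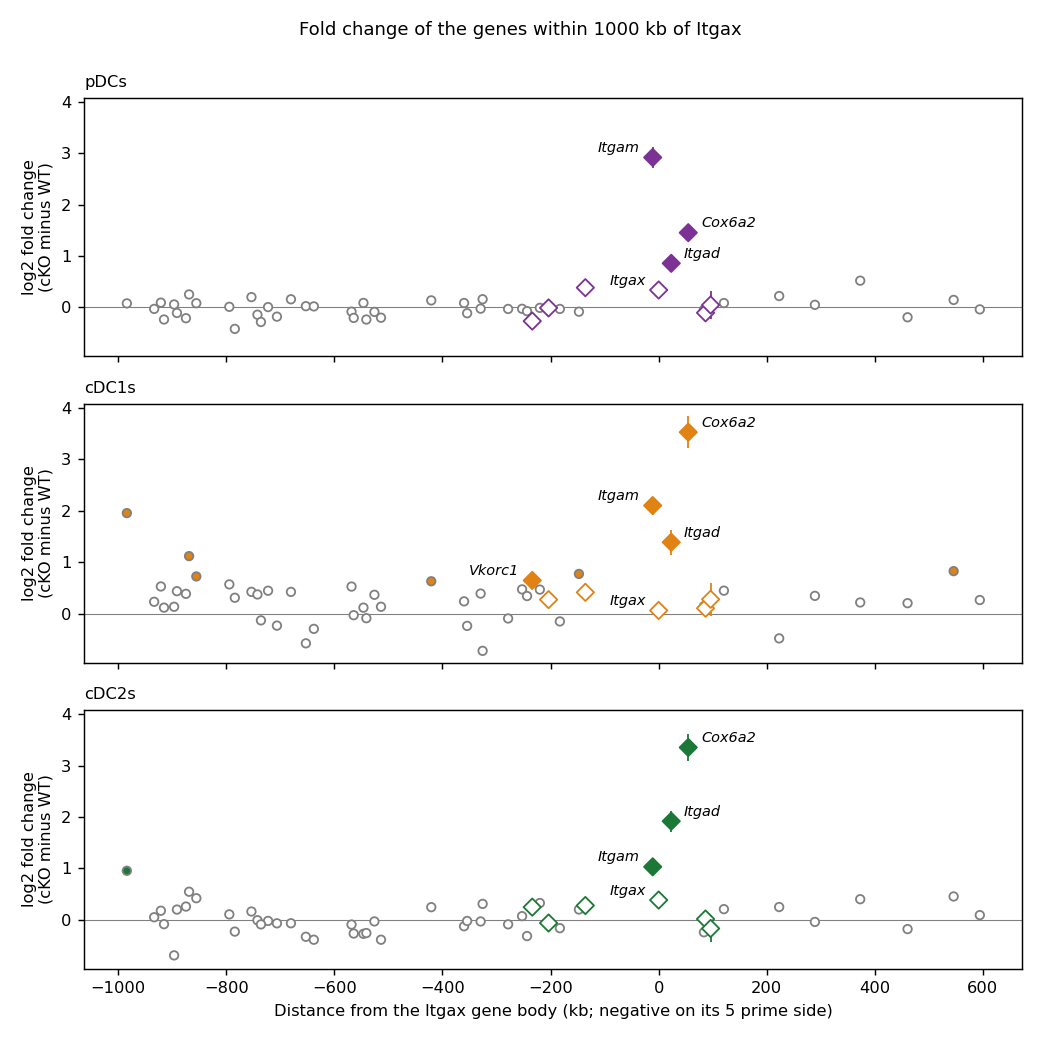
Log2 fold change (cKO minus WT, log2(TPM + 1) scale) of the tested genes within 1000 kb of Itgax against distance from its gene body in kb, negative on its 5′ side, for each subset. Diamonds are the 9 genes with SE bars, circles the other genes, and filled symbols were called. Itgam, Itgad and Cox6a2, within 54.8 kb, were called in each panel, whereas Itgax at 0 kb was not. Spn, 984 kb away on the 5′ side, was also called in cDC1s (1.96) and cDC2s (0.95).

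The difference between the cKO effects in cDC1s and cDC2s was tested by an interaction contrast in the fit of all 10 cDC libraries. By limma 0 of the 9 genes were called, where 1.21% of all genes were higher and 1.35% lower in this contrast (138 and 154 genes, or 100 and 280 under median-of-ratios scaling), and 2 of the 9 had an unadjusted p under 0.05. The largest difference was that of Itgam, whose effect was 1.07 log2 units greater in cDC1s (SE 0.23, 95% interval 0.57 to 1.58, limma adjusted p = 0.0187). With a pseudocount of 0.1 the Itgam difference was called, at 1.55 (limma adjusted p = 0.00570). Itgad leaned toward cDC2s (−0.53, SE 0.32, 95% interval −1.24 to 0.18, limma adjusted p = 0.282). The Cox6a2 difference of 0.18 (SE 0.41) had a wide 95% interval, from −0.74 to 1.09, and Vkorc1 differed by 0.40 (SE 0.13, limma adjusted p = 0.0778). pDCs stand in another table and were not tested against cDCs. Side by side, the order of the log2 fold changes was pDC, cDC1, cDC2 from high to low for Itgam and the reverse for Itgad.

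WT cDC1s and WT cDC2s, which carry no Cre, differed at this locus. Of the 9 genes 5 were called lower in WT cDC1s than in WT cDC2s and 0 higher, beside 20.8% and 10.9% of all genes (2371 and 1241, or 1719 and 1815 under median-of-ratios scaling). WT cDC1 libraries lay below all WT cDC2 libraries for 6 of the 9 genes and above them for 0, beside 41.5% and 20.8% of all genes. Itgam differed most (log2 difference −5.14, SE 0.16, limma adjusted p = 1.05e-08), followed by Itgad (−2.42, SE 0.22, limma adjusted p = 1.1e-05). Cox6a2 (−1.42, limma adjusted p = 0.00242), Itgax (−0.85, limma adjusted p = 0.00146) and Kat8 (−0.52, limma adjusted p = 0.00639) were lower too. The last of these was lost under 13 of 19 alternatives, and was −0.33 under median-of-ratios scaling (limma adjusted p = 0.0229). Without WT cDC1 library 2 the calls for Itgax, Cox6a2 and Kat8 were lost (limma adjusted p = 0.0172, 0.0251 and 0.0744), which left Itgam and Itgad. CD11b was not among the markers of the sort, and CD11c was. Over the other genes within 500 kb, Hsd3b7 and Rgs10 were called higher and Prss36 and Inpp5f lower in WT cDC1s.

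Within cDCs the mean level of Itgam rose in the order WT cDC1, cKO cDC1, WT cDC2, cKO cDC2, at 1.65, 10.4, 93.0 and 190.4 TPM, and no neighbouring groups in this order overlapped. Itgad followed the same order at 1.74, 6.15, 13.9 and 54.7 TPM, also without overlap. The order of Cox6a2 was WT cDC1, WT cDC2, cKO cDC1 and cKO cDC2, at 0.48, 2.84, 15.2 and 37.7 TPM, again without overlap. For Itgax the order was WT cDC1, cKO cDC1, WT cDC2 and cKO cDC2 at 507, 528, 921 and 1201 TPM, where the first pair and the last pair overlapped. In pDCs the means ran from 1.81 TPM for Itgam and 14.7 for Itgad to 212 for Itgax and 1189 for Cox6a2 in WT, and the order of the 4 genes was the same in cKO pDCs.

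Genes of the pathways of the 9 members were described by counts and medians, with lists chosen for their known roles. In pDCs 0 genes of any of the 6 lists were called by limma, and between 0 and 4 genes of each list had an unadjusted p under 0.05. In cDC1s 2 of 12 tested partners and activators of beta-2 integrins were called higher and 1 lower: Rasgrp2, an exchange factor that activates Rap1 (log2 fold change 1.62), the ligand gene Icam2 (0.82), and Cytip, which binds cytohesin (−1.16). Their median was 0.14, against 0.17 over all genes. Of 13 nuclear-encoded cytochrome c oxidase genes only Cox7a2l was called, lower by −0.87, beside a list median of 0.16. Among 12 inflammasome genes around ASC 1 was called higher in cDC1s (Casp1, 0.64, named after its value was seen) and 5 lower, of which Il1b (−4.17), Mefv, the gene of pyrin (−1.81), and Nlrp1b (−1.29) were the largest. Of 11 partners of KAT8 in the MSL and NSL complexes 4 were called higher, with Hcfc1 (1.02), Wdr5 (0.90) and Msl3 (0.61) the largest. Of 9 paxillin-related genes Vcl, the gene of vinculin (1.07), and Ptpn12, a phosphatase gene (0.51), were higher, and of 4 vitamin K genes Pros1, the gene of protein S, was (1.17). The medians were −0.16 for the inflammasome list, 0.30 for the KAT8 list, 0.29 for the paxillin list and 0.20 for the vitamin K list. These counts stand beside 15.8% of all genes higher and 6.56% lower in cDC1s. Of these 13 named by rank, the calls of Cox7a2l, Mefv, Pros1 and Wdr5 held without any 1 library, and those of the other 9 were lost without at least 1 of them. In cDC2s the one call over the 6 lists was Ptk2, focal adhesion kinase (−0.65, limma adjusted p = 0.00519), which was lost without 6 of the 10 cDC libraries, at limma adjusted p of 0.0120 to 0.0291. Between WT cDC1s and WT cDC2s 6 of 12 inflammasome genes, 4 of 12 beta-2 integrin genes, 4 of 11 KAT8 partners and 3 of 9 paxillin-related genes were called lower in cDC1s, 2 beta-2 integrin genes were called higher, and 1 of 13 cytochrome c oxidase genes was lower. Of the 4 vitamin K genes Vkorc1l1 was higher and Pros1 lower. In this contrast 20.8% of all genes were called lower and 10.9% higher, and after median-of-ratios scaling 1719 and 1815 genes.

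The genes with the pattern most like Itgax over the 10 cDC libraries, by Pearson r of log2(TPM + 1), were Matk (r = 0.994), Bace1 (0.985) and Sulf2 (0.985), and Itgam and Itgad followed it at 0.935 and 0.888. Over the 6 pDC libraries they were Cenph (0.990), Haus4 (0.990) and Spred2 (0.987). Among the genes most like Cox6a2 were Adssl1 (0.973) and Selenbp1 (0.973) in cDCs, and S100a10 (0.9995), Ccnd2 (0.995) and Mis18a (0.994) in pDCs. These libraries share groups and a scaling, so that any gene differing between the same groups correlates with them, and r is given as a description.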

How the data were processed

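Single-end reads of 50 bases from BGISEQ-500 had been filtered with SOAPnuke, mapped with Bowtie2 2.2.5 and quantified with RSEM 1.2.12 by the authors, whose submitted notes also name HISAT2 2.0.4 and the build mm10. The authors deposited TPM values per gene and FPKM values of the same genes, in separate tables for pDCs and cDCs; all 32 value columns were mapped to libraries. As these are not counts, limma 3.58.1 (R 4.3.3; lmFit, eBayes with trend) was fitted to log2(TPM + 1) where the mean TPM of a gene was 1 or more, in place of the count model of the study and with its thresholds. Fold changes on this scale are understated for low genes. The 6 pDC libraries were fitted alone and the 10 cDC libraries together, so that cDC1s with 2 libraries per group share the spread of the others. All tests were two-sided. Groups came from sample titles, which number replicates, and the series describes them as biological replicates. Same-numbered pDC libraries deviated together from their group means (r = 0.310, 0.392 and 0.206 over genes), so that the numbers were taken to pair pDC libraries. The blocked fit is quoted where it changed a call. All other test values for pDCs, those with a library left out among them, came from fits without the block and do not use the pairing. Depth was read from the steps between low FPKM values, scanned from 12 to 30 M reads. The fits and the depth estimate were tested on simulated data. Gene positions and promoters are from RefSeq (GRCm38.p6), which named 17079 of 17128 and 17667 of 17721 genes. The genes named were the 9 members, all genes within 100 kb of Itgax, called genes within 500 kb, up to 3 called genes of each pathway list, and the 3 genes most like Itgax and Cox6a2. Some genes that this rule names are not reported here. The members and all lists were chosen with earlier results of these data known. Tables and figures were made with pandas 2.3.3, numpy 2.4.6 and matplotlib 3.10.9 under Python 3.11.15.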

Additional observations from a re-analysis of the deposited data

Results flagged for a closer look

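The cKO effect on Rgs10, a regulator of G protein signalling 223 kb downstream of Itgax, differed between the cDC subsets by the interaction test: the cDC1 effect minus the cDC2 effect was −0.73 (limma adjusted p = 0.00606). Its log2 difference was −0.48 in cDC1s and 0.25 in cDC2s, neither of which was called, and the interaction call was lost without 8 of the 10 cDC libraries (limma adjusted p = 0.0104 to 0.0522). Mefv, of the inflammasome list, fell in cDC1s (−1.81) and was at −0.14 in cDC2s, and the difference was −1.67 (limma adjusted p = 0.00267). This call was lost without cKO cDC1 library 1, cKO cDC1 library 2 or cKO cDC2 library 3 (limma adjusted p = 0.0149, 0.0190 and 0.0111).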

How the results depend on the processing

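Itgam was called in all 3 subsets, Cox6a2 in cDC1s and cDC2s, and Itgad in cDC2s under every alternative run. The limits of the other calls are 2 or 3 libraries per group, and Cox6a2 in WT cDC1s and Tgfb1i1 in cDCs rest on few reads. Where leaving out a library left 1 in a cDC1 group, that library was assumed to vary like the others. Counts of the 9 genes with each library left out ran from 1 to 2 in pDCs (3 with all), 2 to 4 in cDC1s (4), 3 to 3 in cDC2s (3), 0 to 0 for the difference between cDC subsets (0) and 2 to 5 between WT cDC1s and WT cDC2s (5). Counts within 500 kb ran from 1 to 2 in pDCs (3), 2 to 6 in cDC1s (6), 3 to 3 in cDC2s (3), 0 to 1 for the difference (1) and 6 to 10 between the WT subsets (9). With an adjusted p of at most 0.05 and no fold limit, 5 of the 9 genes were called in pDCs (Itgax and Pycard added) and 5 genes within 500 kb, 5 within 500 kb in cDC2s, and for the difference 1 of the 9 and 3 within 500 kb. With a pseudocount of 0.1 the difference was called for 1 of the 9 genes and 2 within 500 kb, and without a trend or with the replicate block for 0 within 500 kb. Quantile normalization left 3 of the 9 genes called between the WT subsets, and a window of 1000 kb held 10 calls in cDC1s. The causes of these changes were not tested.

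In pDCs the replicate block raised the number of genes called from 119 to 335 and changed the call of Trim33 and of none of the 9 genes. cDC replicate numbers did not pair the libraries (correlations of −0.23 in cDC1s and −0.25, 0.25 and −0.16 in cDC2s). With that block 2290 genes were called in cDC1s (2555 without), 568 in cDC2s (816) and 145 for the difference (292), and of the 9 genes it changed only the call of Kat8 between the WT subsets. A pairing crossed in cDC1s, chosen after seeing the data, gave 2156 calls there. Fold changes relative to the median of all genes were also added after seeing the data.

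Signs turned for small differences. Kat8 in pDCs was 0.030 after median-of-ratios scaling, 0.033 with quantile normalization, 0.020 in FPKM, 0.040 relative to the median of all genes, and −0.069 to 0.062 with a library left out. In cDC1s Itgax was −0.11 after median-of-ratios scaling, −0.0038 in FPKM, −0.11 relative to the median and −0.025 to 0.15 with a library left out, and Armc5 was −0.0605 by scaling, −0.052 by quantiles, −0.067 relative to the median and −0.013 to 0.22 with a library left out. With a library left out Tgfb1i1 ran from −0.17 to 0.28 in pDCs and −0.39 to 0.18 in cDC2s, and in cDC2s Armc5 ran from −0.058 to 0.11 and Kat8 from −0.13 to 0.027. For the difference between subsets Cox6a2 was −0.10 by quantiles, −0.27 in FPKM, −0.041 relative to the median and −0.31 to 0.66 with a library left out. There Pycard was −0.082 by scaling, −0.058 by quantiles and −0.082 relative to the median, and Armc5 was −0.13, −0.072 and −0.13 in that order, −0.014 in FPKM and −0.029 to 0.21 with a library left out. Trim33 was −0.052 by scaling and −0.059 relative to the median. Between the WT subsets Vkorc1 was 0.11 by scaling, 0.061 by quantiles and 0.0865 relative to the median, and Armc5 ran from −0.023 to 0.21.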
